A study of Sus scrofa with 9 samples.

Results

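The last part of gestation in the longissimus dorsi, the long back muscle of the pig, was examined by setting the small RNA library of fetuses at day 90 of gestation (E90) against the library of newborn pigs (day 0). These are 2 of the 9 libraries of a study of muscle development in female Jinhua pigs, a Chinese breed. The other libraries are from day 30 (1 library), day 180 (3) and 7 years (3). All animals were females of 1 breed, the labels name no treatment, and 15 pigs gave the 9 libraries, without a statement of how many went into each. Copies of each arm of a microRNA (miRNA) precursor were taken from 2 deposited tables, one of conserved miRNAs and one of putative new ones. Putative new arms carry PN and the start of their precursor. The tables hold 100 conserved and 395 putative new arms, of which 43 had 100 or more copies in either of the 2 libraries, and these 43 were compared, 32 conserved and 11 putative new.

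E90 held 5042191 high-quality reads and day 0 held 4469677, and levels are given as RPM, copies per 1000000 of these reads. An arm that a library does not list is set at a floor of 3 copies, which is 0.595 RPM at E90 and 0.671 RPM at day 0. A ratio is the RPM of one library over the RPM of the other, followed by its exact 95% counting interval. With 1 library for each age there is no replicate and no test, and the interval covers no error other than counting, as amplified reads can stem from 1 molecule. A ratio of 2 or more is called 2-fold. In whole muscle, fewer cells of a type and less miRNA per cell cannot be told apart. Several abundant muscle miRNAs, such as miR-206, were not analysed here, and summed levels refer to the tabulated arms.

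A miRNA is cut from a hairpin precursor that can give a product from its 5p side, its 3p side or both. The product guides silencing proteins to messenger RNAs, chiefly through its seed, bases 2 to 8. A large group of miRNAs lies in the imprinted DLK1-DIO3 region, where they are made from the maternal chromosome as parts of long transcripts, and in sheep a mutation in this region gives the heavily muscled callipyge animals. Muscle fibres of large mammals are mostly formed before birth, so that the days between these libraries belong to fibre growth and maturation.

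The sequences below are the most abundant ones in the E90 library for the arms that differ most or are most abundant, together with arms that share a seed. Capitals mark the seed, and T stands for U as in the deposited tables.
miR-409-3p: gAATGTTGctcggtgaacccct
miR-412-5p: tGGTCGACcagttggaaagtaat
miR-541-3p: tGGTGGGCacagaatccggcct
miR-431-5p: tGTCTTGCaggccgtcatgc
miR-431-3p: cAGGTCGTcttgcagggcttct
miR-655-3p: aTAATACAtggttaacctcttt
miR-485-3p: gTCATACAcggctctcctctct
miR-539-3p: aTCATACAaggacaatttcttt
miR-376b-3p: aTCATAGAggaaaatccatgt
miR-376d-3p: aTCATAGAggaaaatccacat
miR-411c-5p: gGTTGATCagagaacatacatt
miR-411c-3p: tGTATGTCaactgatccacagt
miR-26b-5p: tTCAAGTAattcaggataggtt
PN-24885174-5p: tTCAAGTAacccaggataggctt
miR-301b-3p: cAGTGCAAtgatattgtcaaagc
miR-454-3p: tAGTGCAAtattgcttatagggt
miR-216b-5p: aAATCTCTgcaggcaaatgtga
The 43 arms held 39 distinct seeds, and 4 seeds were shared by a pair of arms each. miR-485-3p and miR-539-3p share TCATACA, miR-376b-3p and miR-376d-3p share TCATAGA, miR-301b-3p and miR-454-3p share AGTGCAA, and miR-26b-5p shares TCAAGTA with PN-24885174-5p.

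Of the 43 arms, 17 were at least 2-fold higher in the fetus (39.5%) and 7 at least 2-fold higher at birth (16.3%). The other 19 lay within 2-fold. Among conserved arms the split was 14 of 32 higher at E90 (43.8%) and 4 of 32 higher at day 0 (12.5%), and among putative new arms it was 3 of 11 each way (27.3%). The median arm stood 1.51 times higher at E90, a log2 ratio of 0.60. Relative to this median 10 arms were 2-fold higher at E90 and 12 were 2-fold higher at day 0, so that the excess of fetal arms holds per high-quality read and not relative to the median arm. Some entries share 16 or more bases and may hold the same RNA. With such entries joined, 15 of 41 were 2-fold higher at E90 and 6 at day 0, and among the 30 with conserved arms 13 and 3. As a yardstick for libraries of 1 age, the replicate pairs were past 2-fold in either direction for 20% (replicates 1 and 2), 33.3% (1 and 3) and 16.7% (2 and 3) of the arms at day 180. At 7 years the same pairs gave 18.2%, 31.2% and 12.5%. E90 against day 0 had 55.8%. The replicate pairs rest on 11 to 30 arms, and their median log2 ratio reached 0.51 (day 180, replicates 1 and 2). The largest difference of a single arm within an age was at least 111-fold (miR-6529-5p at 7 years, replicates 1 and 3). Replicate 3 does not list that arm and was set at the floor.

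**Figure D1:**
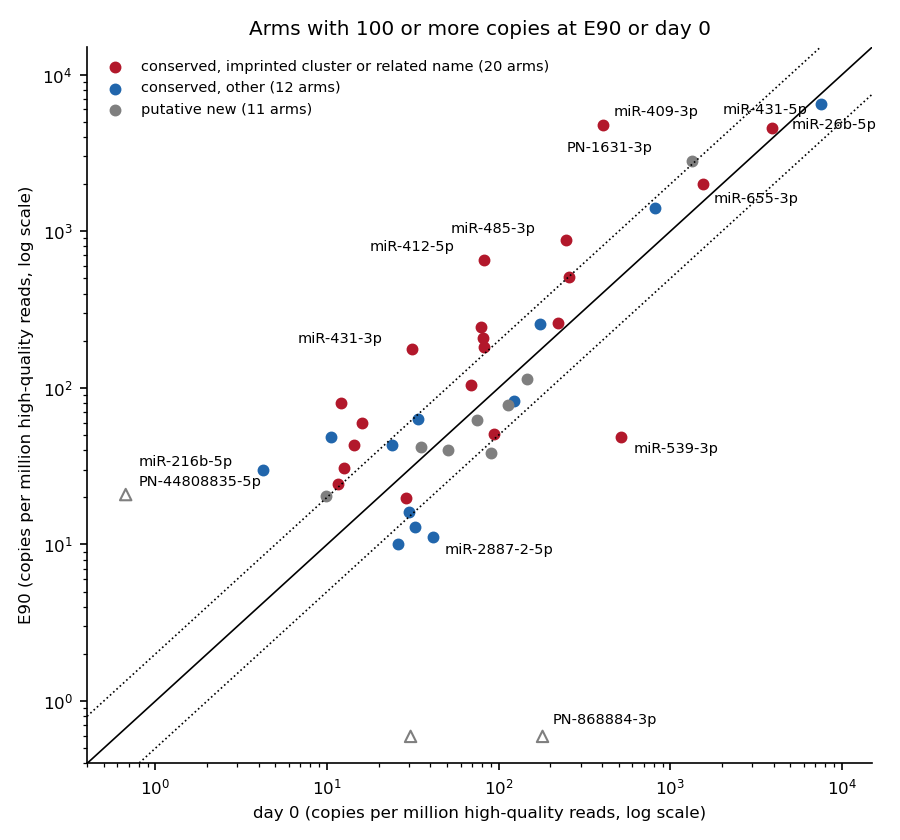
Level of each of the 43 arms at day 0 (x axis) and E90 (y axis), both in RPM on log scales. Dots are arms listed in both libraries, open triangles are arms set at the floor of 3 copies in one of them, the solid line marks equal levels and the dotted lines 2-fold. miR-409-3p stands far above the upper dotted line and miR-539-3p far below the lower one.

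Most of the difference in the summed conserved level lay in miR-409-3p of the imprinted cluster. Conserved arms summed to 23512 RPM at E90 and 16747 RPM at day 0, a net difference of 6764 RPM. This difference holds per high-quality read, since the ratio of 1.40 became 0.996 with the summed copies of both tables as library size and 0.927 relative to the median arm. miR-409-3p was at 4799 RPM (24197 copies) in the fetus and 405 RPM (1810 copies) at birth, 11.9-fold higher at E90 (11.3 to 12.4). Its difference of 4394 RPM equals 65.0% of the net difference. Without it the conserved sum was 1.15-fold higher at E90 (1.13 to 1.16), against 1.40-fold with it. Its share of all conserved copies was 20.4% at E90 and 2.42% at day 0, and its rank went from 2 to 6.

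The most abundant conserved arm in both libraries was miR-26b-5p, a member of the miR-26 family, which in mouse myoblasts acts on the chromatin enzyme gene Ezh2. It stood at 6477 RPM at E90 and 7522 RPM at day 0, a ratio of 1.16 towards birth (1.14 to 1.18). The other conserved arms were lower in sum, though not each of them, and its share of conserved copies went from 27.5% to 44.9%. PN-24885174-5p, the putative new arm with the same seed, was at 62.3 RPM and 74.5 RPM (1.196 towards birth, 1.02 to 1.40). Its main sequence was the one case among the 40 compared arms listed in both libraries that did not lie in the listed precursor sequence. miR-431-5p, which in mouse acts on the satellite cell gene Pax7, stood at 4527 RPM and 3931 RPM (1.15 towards E90, 1.13 to 1.17). Relative to the median arm this small difference turned towards birth, as it did for miR-655-3p at 1994 RPM and 1550 RPM (1.29 towards E90, 1.25 to 1.33). The 3 most abundant conserved arms made up 67.2% of the copies in the fetus and 77.6% at birth.

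Members of the DLK1-DIO3 list, a list of names known from the human and mouse cluster, summed to 14310 RPM at E90 and 7327 RPM at day 0 (1.95-fold, 1.93 to 1.98). Without miR-409-3p the sums were 9511 RPM and 6922 RPM (1.37-fold, 1.35 to 1.39). Of 15 compared arms of the list, 9 were at least 2-fold higher at E90 and 1 at least 2-fold higher at day 0, with a median ratio of 2.44. Under both other scalings the counts were 6 and 2, as miR-376b-3p, miR-377-3p and miR-496-3p fell short of 2-fold and miR-539-5p passed it towards birth. The same share over all conserved arms is 43.8%, and the list supplies 15 of those 32 arms. Of 5 compared arms of related names that the list does not hold (miR-154b, miR-376d and miR-411c), 3 were 2-fold higher at E90 and none at day 0. Scaled by summed copies these counts were 2 and 1, and relative to the median arm 1 and 1. Among the 12 conserved arms outside both sets 2 were 2-fold higher at E90 and 3 at day 0, with a median ratio of 1.13, or 2 and 2 of 11 with overlapping entries joined. Conserved arms outside the list summed to 9202 RPM at E90 and 9420 RPM at day 0, and without miR-26b-5p this remainder was 1.43-fold higher at E90 (1.40 to 1.48). This ratio lies below that of the median arm, 1.51, so the remainder was not higher at E90 relative to the median arm.

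Next to miR-409-3p, its neighbour miR-412-5p was at 659 RPM in the fetus, 81.9 RPM at birth and 16.1 RPM at day 30, a ratio of 8.04 from E90 to day 0 (7.22 to 8.99). miR-541-3p of the next precursor was at 79.7 RPM and 12.1 RPM (6.599-fold, 4.96 to 8.94), and its partner arm miR-541-5p at 59.5 RPM and 15.9 RPM (3.75-fold, 2.88 to 4.92). Each of these 4 arms was lower at birth. miR-485-3p was at 884 RPM at E90, 245 RPM at day 0 and 28.2 RPM at day 30 (3.61-fold from E90 to day 0, 3.38 to 3.86). The minor arm miR-431-3p (chromosome 7, 132097559 to 132097703, plus strand, assembly Sscrofa10) was at 176 RPM and 31.3 RPM (5.63-fold, 4.71 to 6.78), while the major arm of that hairpin was within 2-fold. Coordinates are those of the deposited tables, and what an annotation of that assembly holds at them was not analysed here.

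Several other arms of the cluster had smaller differences in the same direction, while miR-411c-5p and both arms of mir-539 stood higher at birth. miR-411c-3p was at 246 RPM at E90 and 78.3 RPM at day 0 (3.14-fold, 2.79 to 3.54) and at 224 RPM at day 30. miR-154b-5p was at 43.0 RPM and 14.3 RPM (3.01-fold, 2.27 to 4.04), and miR-154b-3p at 24.4 RPM and 11.6 RPM (2.10-fold, 1.51 to 2.96). Under both other scalings miR-154b-3p was under 2-fold (1.487 and 1.385), and relative to the median arm so was miR-154b-5p (1.985). miR-496-3p stood at 30.5 RPM and 12.5 RPM (2.44-fold, 1.78 to 3.37). miR-377-3p stood at 181 RPM and 82.6 RPM (2.20-fold, 1.94 to 2.49) and was at 402 RPM at day 30, above its fetal level. Of the 14 conserved arms past 2-fold at E90, miR-154b-3p, miR-496-3p and miR-377-3p had counting intervals that reach below 2. Just under the 2-fold line was miR-544-5p, at 510 RPM and 256 RPM (1.99-fold, 1.86 to 2.14).

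miR-376b-3p and miR-376d-3p have the same seed and differ near their 3′ ends. miR-376b-3p was at 207 RPM in the fetus and 80.5 RPM at birth (2.58-fold, 2.28 to 2.91), and miR-376d-3p at 261 RPM and 221 RPM (1.18-fold, 1.09 to 1.29). Their sequences share at least 16 bases, so reads of one could have been counted for the other. Joined, they were 1.55-fold higher at E90 (1.45 to 1.66). Under both other scalings miR-376b-3p was under 2-fold (1.83 and 1.70) and miR-376d-3p turned towards birth (0.838 and 0.781).

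**Figure D2:**
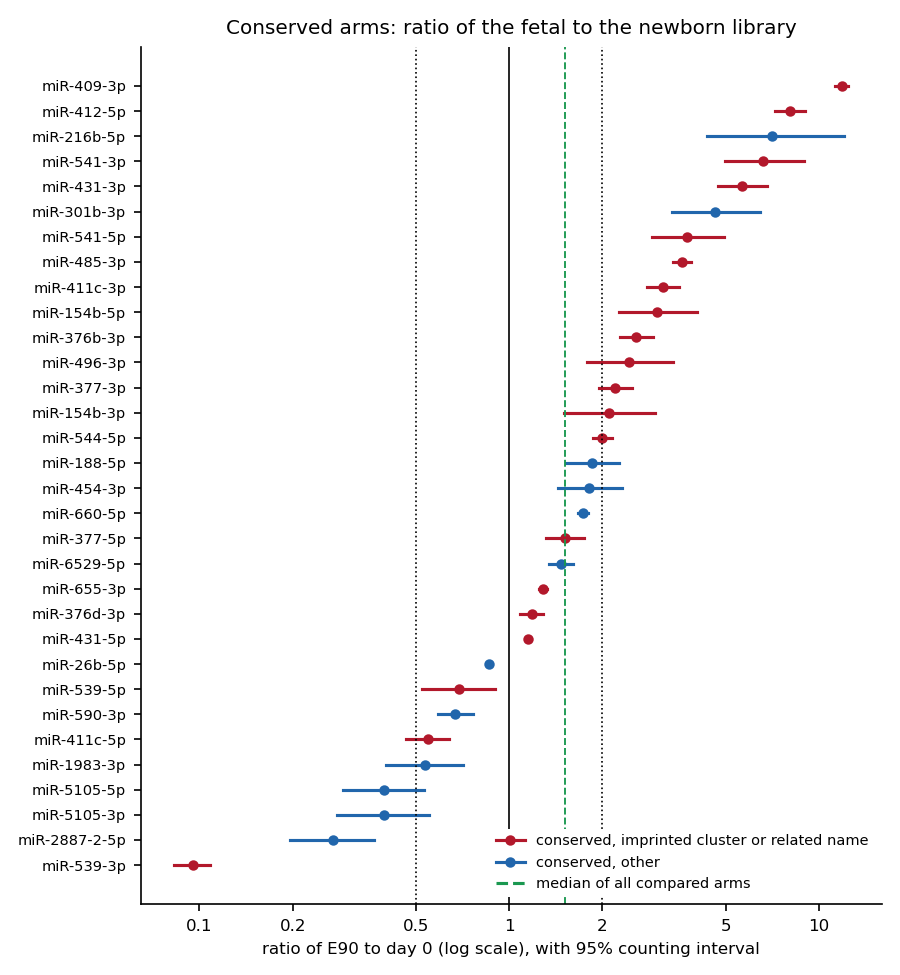
Ratio of E90 to day 0 (x axis, log scale) for the 32 conserved arms (rows), with 95% counting intervals as bars. Red marks arms of the DLK1-DIO3 list or of related names and blue the others, dotted lines mark 2-fold and the dashed line the median of all 43 arms, 1.51. The red arms run from 0.0951 for miR-539-3p to 11.9 for miR-409-3p.

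Against the direction of the cluster, miR-539-3p had the highest ratio towards birth of the 32 conserved arms with 100 or more copies. It was at 48.8 RPM (246 copies) at E90, 513 RPM (2293 copies) at day 0 and 389 RPM at day 30, so that it stood 10.5-fold higher at birth than in the fetus (9.22 to 12.04). Its rank among conserved arms went from 21 to 5. The arm from the other side of the same hairpin, miR-539-5p, was at 19.8 RPM and 28.9 RPM, 1.46-fold towards birth (1.11 to 1.91). miR-485-3p, which has the seed of miR-539-3p, thus differed in the opposite direction, and the pair together went from 4702 copies at E90 to 3388 copies at day 0. The members of this pair stood in a ratio of 18.1 copies of miR-485-3p to 1 of miR-539-3p at E90 and of 0.478 to 1 at day 0.

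A position pattern was noticed after the values were seen. The tables place 13 compared precursors of the cluster or of related names on the minus strand of a scaffold that they do not name, with starts from 6715 to 31674. If all lie on 1 scaffold, the 3 precursors with the lowest starts, mir-412, mir-409 and mir-541, are the most distal along the direction of transcription. Their 4 compared arms had ratios from 3.75 to 11.9, each of them 3-fold or more higher at E90. Of the 14 arms of the other 10 precursors, 3 were 3-fold or more higher at E90, and the median ratio was 2.05. Across the 13 precursors the rank correlation of start and ratio was −0.74 (Pearson's r of start and log2 ratio −0.63), given as a description, since all values come from the same pair of libraries.

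**Figure D3:**
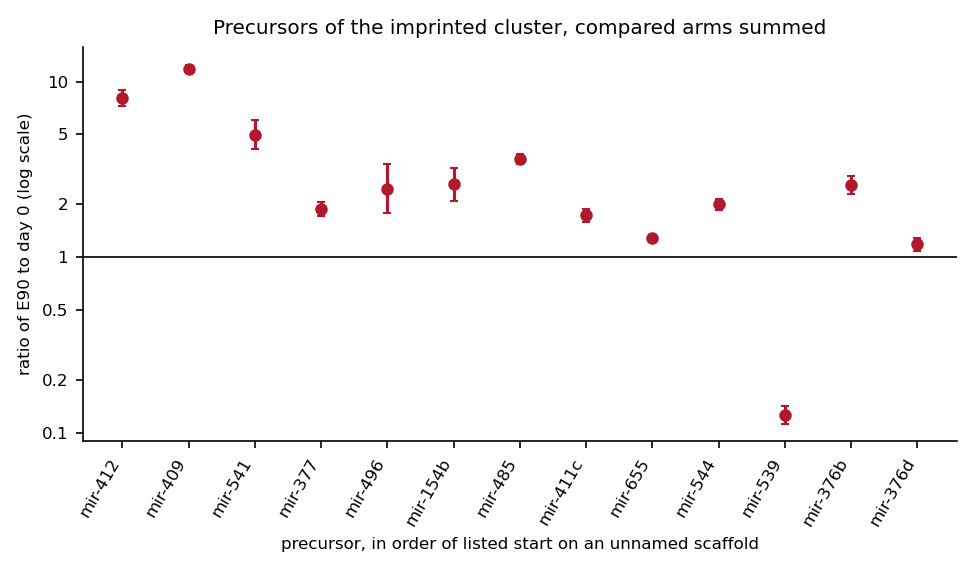
Ratio of E90 to day 0 (y axis, log scale) of the summed compared arms of 13 precursors, ordered by their listed start on a scaffold that the tables do not name, with 95% counting intervals. The first 3 precursors lie between 4.98 and 11.9, the others between 1.18 and 3.61 except mir-539 at 0.127.

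Outside the imprinted cluster, 2 conserved arms were 2-fold higher in the fetus. miR-216b-5p, whose cluster is best known from the pancreas (chromosome 3, 90047313 to 90047398, plus strand), was at 29.9 RPM (151 copies) at E90, 4.25 RPM (19 copies) at day 0 and 0.863 RPM at day 30. Its ratio from E90 to day 0 was 7.05 (4.36 to 12.03). miR-301b-3p (chromosome 14, 53695887 to 53695980, minus strand) was at 48.4 RPM at E90, 10.5 RPM at day 0 and 12.9 RPM at day 30 (4.60-fold from E90 to day 0, 3.36 to 6.43). Its seed partner miR-454-3p of the miR-130 family (chromosome 12, 37088039 to 37088181, plus strand) was at 43.4 RPM and 23.9 RPM (1.81-fold, 1.43 to 2.31). The X-linked neighbours miR-660-5p and miR-188-5p differed by similar ratios. miR-660-5p (X, 48640809 to 48640903, plus strand) was at 1402 RPM and 810 RPM (1.73-fold, 1.66 to 1.80), and miR-188-5p (X, 48632378 to 48632485, plus strand) at 63.1 RPM and 34.0 RPM (1.85-fold, 1.52 to 2.27). Under both other scalings the ratios were smaller, at 1.228 and 1.143 for miR-660-5p and 1.315 and 1.225 for miR-188-5p. For miR-454-3p they were 1.287 and 1.198. miR-6529-5p was at 257 RPM and 174 RPM (1.47-fold, 1.35 to 1.61), a direction that turns relative to the median arm. miR-590-3p at 82.7 RPM and 123.5 RPM and miR-1983-3p at 16.1 RPM and 30.0 RPM were within 2-fold towards birth. Under both other scalings these were past 2-fold, with ratios of E90 to day 0 of 0.475 and 0.442 for miR-590-3p and of 0.380 and 0.354 for miR-1983-3p.

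Between these libraries, muscle markers were listed mostly at birth, all below the minimum of 100 copies. miR-208a lies in an intron of the alpha-myosin heavy chain gene in mammals, and its 3p arm (chromosome 7, 81043844 to 81043943, minus strand) had no listed copy at E90, 97 copies at day 0 (21.7 RPM) and 27 copies at day 30 (7.77 RPM). Against the floor of 3 copies it was at least 36.5-fold higher at birth. miR-1a-2-5p, from a precursor of the muscle-specific miR-1, had 5 copies at E90 and 40 at day 0 (9.02-fold towards birth, 3.56 to 29.3), and miR-1-2-3p had none and 7. The 4 arms of this marker list in the tables, including miR-208a-5p, summed to 0.992 RPM at E90 and 34.0 RPM at day 0 (34.3-fold, 14.4 to 107). At day 30 they summed to 14.4 RPM, and in the libraries of day 180 and 7 years to between 0 and 1.065 RPM. These tables thus hold little by which to check the muscle label of the E90 library, as of the day 180 and 7 years libraries.

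The markers of other cells that were listed were low in both libraries. The erythroid and endothelial marker lists had no arm listed in any library. The myeloid or lymphoid list and the nerve list had 1 arm each, so little can be read about such cells. The 6 epithelial arms in the tables, of miR-200b, miR-200c, miR-141, miR-375 and miR-96, summed to 13.3 RPM at E90 and 5.59 RPM at day 0. Within this list miR-200b-3p had 26 copies in the fetus and none at birth, at least 7.68-fold higher at E90. miR-200c-3p with 13 copies, miR-375-3p with 8 and miR-200b-5p with 3 were also listed at E90 alone. miR-141-3p had 14 copies at E90 and 17 at day 0, and miR-96-5p had 3 and 8. Both stood higher at birth, but the intervals of their ratios of E90 to day 0 included 1 (0.333 to 1.574 and 0.0568 to 1.385). The blood marker miR-223-3p was at 2.58 RPM and 5.59 RPM, and the nerve marker miR-219-3p had 13 copies at E90 and none at day 0. The part of these cells in the differences described here was not tested.

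**Figure D4:**
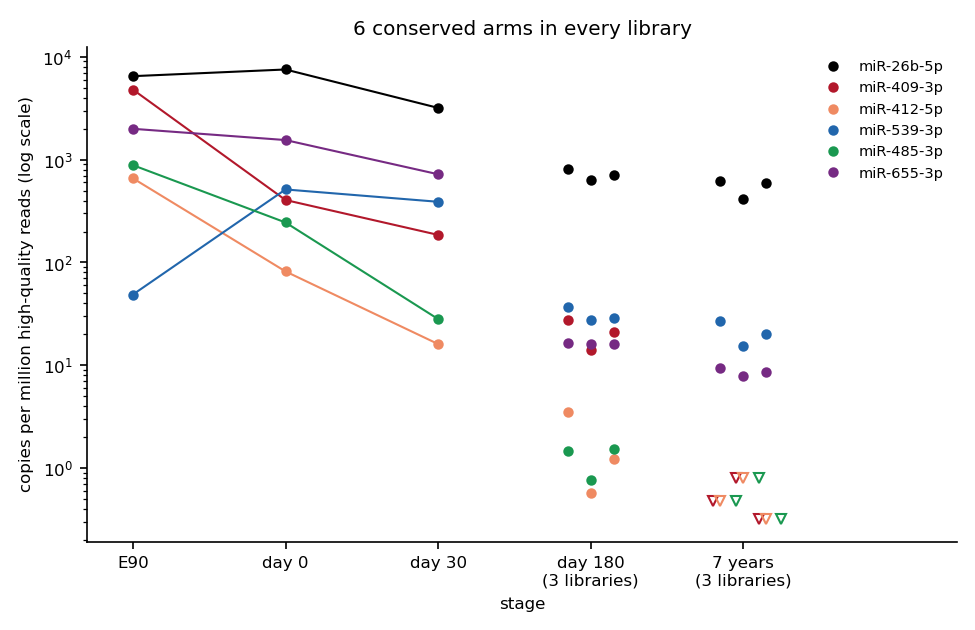
Level of 6 conserved arms, chosen after their values were seen, in each of the 9 libraries (y axis, RPM, log scale) by stage (x axis). Dots are libraries, lines join the stages with 1 library, and open triangles mark the floor of 3 copies where a library does not list the arm. miR-539-3p is lowest of the 6 at E90 with 48.8 RPM and below only miR-26b-5p and miR-655-3p at day 0 with 513 RPM, while miR-409-3p goes from 4799 RPM to 405 RPM.

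The other conserved arms that were 2-fold higher at birth came from a stretch of chromosome 6 and are rich in G and C. miR-2887-2-5p (chromosome 6, 866649 to 866705, minus strand), of a name known from cattle, was at 11.1 RPM at E90, 41.2 RPM at day 0 and 7.19 RPM at day 30 (3.71-fold towards birth, 2.74 to 5.09). The entries listed as the 5p and 3p arms of mir-5105, a name known from mouse, lie at 870882 to 870961 on that strand. The 3p arm was at 10.1 RPM and 25.7 RPM and the 5p arm at 12.9 RPM and 32.7 RPM, in the fetus and at birth. The main sequence of the 3p entry (17 nt) lies wholly within that of the 5p entry (22 nt), so they need not be separate arms. Joined, the entries were 2.54-fold higher at birth (2.03 to 3.19). All 10 arms of the block summed to 252 copies in the fetus and 572 copies at birth (2.56-fold per read, 2.20 to 2.98). Most of these copies belong to miR-2887-2-5p and the mir-5105 entries, which reached the minimum of copies only at day 0. The sum is therefore no separate evidence of a difference across the block. Below the minimum, miR-716a-3p (18 and 45 copies) and miR-2904-3-3p (13 and 36) stood higher at birth. By contrast, miR-6087-3p (27 and 13 copies) stood higher at E90.
miR-2887-2-5p: gGGACCGGggtccggtgcgga
miR-5105-3p: cCTTCTGAtcgaggccc
miR-5105-5p: cAAGTCCTtctgatcgaggccc
PN-868884-3p: cCCGTCGCccgcgcgcgcgcgcgcccc
These are shown for their composition, with the most abundant day 0 sequence for PN-868884-3p, which E90 does not list. Among the 7 arms that were 2-fold higher at birth the main sequence had a median GC content of 64.7%, and 5 of the 7 were over 60% GC, against 11 of all 43 arms. Among the 17 arms that were 2-fold higher at E90 the median was 47.8%, and 2 were over 60%. Of the 7 arms, miR-2887-2-5p and the entries of mir-5105 and PN-868884 reached the minimum of copies at day 0 alone. The mir-5105 entries overlap in sequence, as do those of PN-868884, so the 7 arms are not independent. The contrast in GC content thus rests on few sequences. Across conserved arms GC content and log2 ratio had a Pearson's r of 0.06 over 32 arms. Over all 43 arms it was −0.41 and the rank correlation −0.21, values that include 3 arms set at the floor. Main sequences were 21 to 25 nt long in the fetal group and 17 to 27 nt in the birth group.

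Among putative new arms, PN-1631-3p dominated both libraries. It was at 2819 RPM (14212 copies) at E90, 1331 RPM at day 0 and 446 RPM at day 30, 2.12-fold higher in the fetus than at birth (2.06 to 2.18). Under both other scalings PN-1631-3p was under 2-fold (1.502 and 1.40). Its share of all putative new copies was 80.9% at E90 and 55.5% at day 0. Its partner arm PN-1631-5p stood at 20.4 RPM and 9.84 RPM (2.08-fold, 1.45 to 3.03), and joined with PN-66115778-3p, with which it shares at least 16 bases, it was 1.71-fold higher at E90 (1.24 to 2.39). Unjoined, PN-1631-5p had ratios of 1.47 and 1.37 under the other scalings. Without PN-1631-3p the putative new sum turned, with a ratio of E90 to day 0 of 0.623 (0.596 to 0.651) in place of 1.45, and with all arms it was 1.03 and 0.960 under the other scalings.
PN-1631-3p: tGGTGCCTgacgtcttggcagt
PN-1631-5p: aGCCAGGGctgcaggcactgac
They are shown because the major arm sets the direction of the putative new sum.

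Arms listed in only 1 of these libraries need care, since neighbouring entries can hold the same RNA. PN-868884-3p had 804 copies at day 0 (180 RPM) and none at E90, at least 302-fold higher at birth, and no other library listed it. PN-868884-5p had 137 copies at day 0 and none at E90, at least 51.5-fold higher. These entries share at least 16 bases with each other, and the 5p entry also shares them with PN-3335108-5p, which had 43 copies at E90 and 54 at day 0. With that entry joined, PN-868884-5p was 5.01-fold higher at birth (3.58 to 7.15). Joined as a chain, PN-868884-3p, PN-868884-5p and PN-3335108-5p had 43 copies at E90 and 995 at day 0. PN-44808835-5p had 105 copies at E90 (20.8 RPM) and none at day 0, at least 31.0-fold higher in the fetus, but PN-44808832-5p of the same locus had 25 copies at day 0 alone. Joined, this locus was 3.72-fold higher at E90 (2.39 to 6.01).

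Of the remaining abundant putative new arms, PN-5388442-5p was past 2-fold towards birth and the others were within 2-fold. PN-870046-3p was at 114 RPM in the fetus and 146 RPM at birth (1.29 towards birth, 1.15 to 1.44). PN-5388442-3p (chromosome 5, 5388442 to 5388702, plus strand) was at 77.7 RPM and 113 RPM (1.45 towards birth, 1.27 to 1.66), and PN-5388442-5p at 38.3 RPM and 89.7 RPM (2.34-fold, 1.97 to 2.80). Under both other scalings each was past 2-fold, with ratios of E90 to day 0 of 0.488 and 0.4545 for the 3p arm and 0.303 and 0.282 for the 5p arm. On chromosome 14 (32286946 to 32287205, plus strand) PN-32286946-5p was at 39.9 RPM and 50.3 RPM (1.26 towards birth, 1.04 to 1.54). For PN-870046-5p the interval of the ratio included 1 (1.197 towards E90, 0.969 to 1.48).

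Which arm of a hairpin dominated was mostly the same at E90 and day 0. Of 21 hairpins with 100 or more copies in each library, 19 had the same major arm. In the share of the 5p arm, 13 differed by less than 5 percentage points and 4 by 10 points or more. The 19 and the 13 include mir-5105, whose 3p sequence lies within its 5p sequence. In mir-411c the 5p arm made up 17.2% of the copies at E90 (15.3 to 19.2) and 54.4% at day 0 (50.8 to 57.9), so the major arm was the 3p arm in the fetus and the 5p arm at birth. At day 30 the share was 34.8%, between these values. miR-411c-5p itself was at 51.0 RPM and 93.3 RPM (1.83 towards birth, 1.56 to 2.15), while the 3p arm stood 3.14-fold higher in the fetus, so the levels of the arms differed in opposite directions.

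In mir-539 the share of the 5p arm went from 28.9% (24.2 to 34.0) to 5.33% (4.47 to 6.30), and the 3p arm was the major one in both libraries. In mir-541 it went from 42.7% (39.04 to 46.5) to 56.8% (47.6 to 65.6), on 125 copies at day 0. For PN-5388442 it went from 32.99% (29.2 to 37.0) to 44.3% (41.0 to 47.6). By contrast, mir-409 kept 99.8% of its copies on the 3p arm in both libraries, although its level differed more than 10 times. Shares within a hairpin do not depend on the scaling of the libraries.

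**Figure D5:**
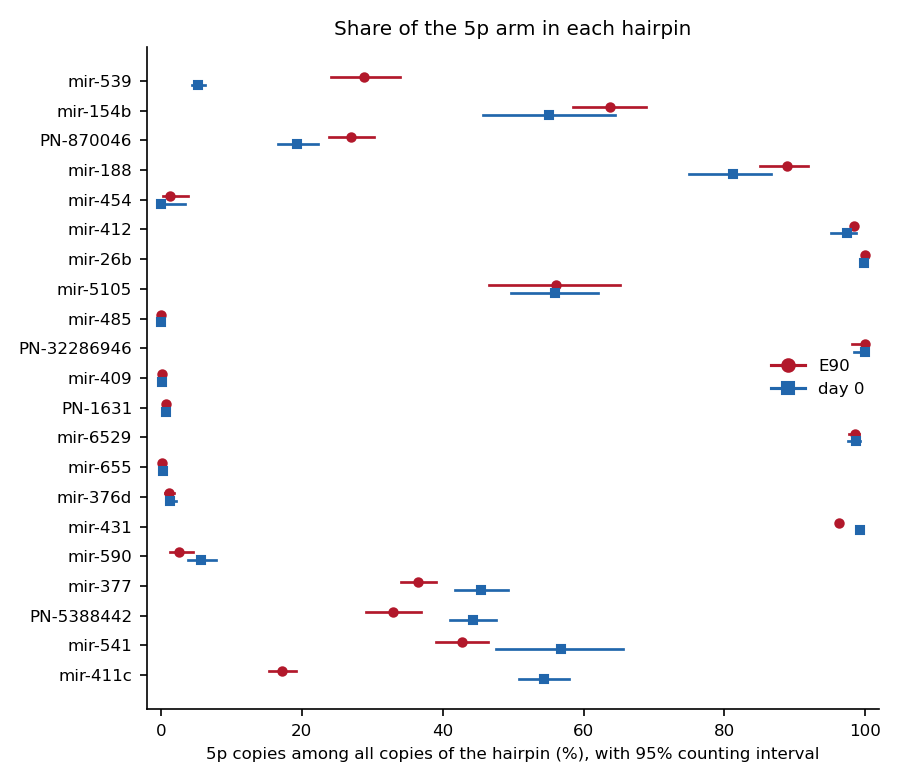
Share of the 5p arm among all copies of a hairpin (x axis, percent) at E90 (red circles) and day 0 (blue squares) for 21 hairpins (rows), with 95% counting intervals. mir-411c at 17.2% and 54.4% and mir-539 at 28.9% and 5.33% stand at the ends of the plot.

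The main product itself was the same in nearly all compared arms. Of 40 arms listed in both libraries, 36 had an identical most abundant sequence and all 40 had the same seed. The 4 others of the 40, miR-496-3p, PN-1631-5p, PN-32286946-5p and PN-870046-5p, kept their start and differed in length by 1 or 2 nt. At day 30 the same 40 arms were listed, of which 31 had the E90 sequence and 37 the E90 seed. The exceptions in seed were miR-496-3p, on 3 copies at day 30, miR-5105-5p and PN-870046-5p, named after their values were seen.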

How the data were processed

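Per the labels, small RNA of 10 to 40 nt was cut from a gel and read on a Genome Analyzer II from Illumina. Per the file headers, the deposited values are whole-number counts of copies of each miRNA arm in each library, with the high-quality reads of each library and precursor positions on Sscrofa10. For the aligner and the miRNA caller, nothing was given in the sources used here.

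Columns were matched to libraries by their header. Empty cells were counted as 0, and the lowest value written in these libraries was 2. Putative new entries identical in sequence and copies were merged (426 to 395). The tables hold 100 conserved arms. The members and lists were chosen with earlier results of these data known. Named are conserved arms past 2-fold, the 10 most abundant conserved and 5 most abundant putative new arms, putative new arms past 4-fold, arms of hairpins whose 5p share differs by 10 points, and arms whose seed differs. Others were named after their values were seen. Intervals are Clopper-Pearson intervals at 95%, carried from the share of copies to the ratio. They were checked on simulated counts. Python 3.11.15, numpy 2.4.6, pandas 2.3.3, scipy 1.17.1 and matplotlib 3.10.9 were used.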

Additional observations from a re-analysis of the deposited data

How the results depend on the processing

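With the summed copies of both tables as library size, 11 arms were 2-fold higher at E90 and 12 at day 0, and the median log2 ratio was 0.10. With the median ratio of the 43 arms set to 1, the counts were 10 and 12. Under these scalings the ratio of E90 to day 0 was 0.996 and 0.927 for the conserved sum, 1.03 and 0.960 for the putative new sum, 1.39 and 1.29 for the DLK1-DIO3 list and 0.693 and 0.645 for conserved arms outside it, so that the conserved sum turned direction under both and the putative new sum under the second. Of the 16 arms listed in both libraries and 2-fold higher at E90, 10 and 9 stayed 2-fold higher. Both scalings lower every ratio of E90 to day 0, by factors of 1.41 and 1.51. No arm past 2-fold could therefore turn direction, and that none did carries no information.

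Other minimums moved the counts. At 50 copies 12 arms were 2-fold higher at day 0, at 200 copies 3, and at 10 copies 42 were higher at E90 and 41 at day 0, with a median log2 ratio of −0.01, which turned sign. Conserved arms alone gave 4 at day 0 and a median of 0.88. A fold of 3 gave 11 at E90 and 4 at day 0. Without miR-26b-5p the conserved sum had a ratio of 1.85 and the sum outside the DLK1-DIO3 list turned to 1.43. Without miR-431-5p that list had 2.88, and without PN-1631-3p the putative new sum turned to 0.623. Without miR-409-3p, an alternative chosen after seeing the data, the conserved sum had 1.15 and the list 1.37. Counting empty cells as 2 copies, not merging, joining neighbouring entries or entries that share 16 bases (both added after seeing the data) and a fold of 1.5 kept the counts within 1.5 times of 17 and 7. No paired analysis was possible because E90 and day 0 have 1 library each. Depth limits arms near 100 copies most, as for miR-154b-3p with 123 and 52 copies and an interval from 1.51 to 2.96.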

Other observations

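Of 100 conserved arms, 68 were listed in both libraries, 15 at E90 alone, 10 at day 0 alone and 7 in neither. The highest arm listed at E90 alone was miR-200b-3p with 26 copies, and the highest at day 0 alone was miR-208a-3p with 97. Of 395 putative new arms, 129 were listed at day 0 and 90 at E90, although the fetal library had more reads and more copies. They split into 56 in both libraries, 73 at day 0 alone, 34 at E90 alone and 232 in neither. Some may be neighbouring entries of the same RNA, such as PN-80161039-3p (39 copies, day 0 alone) and PN-80161038-3p (35 copies, E90 alone). Others had only 3 copies. miR-33a-5p, which lies in an intron of the sterol regulator gene SREBF2 in human, was close to equal with 82 copies at E90 and 70 at day 0, a ratio of 1.04 (0.746 to 1.45). The passenger arm miR-26b-3p was at 3.57 RPM and 13.4 RPM, while the 5p arm of that hairpin differed by a ratio of 1.16 towards birth.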
